A study of Mus musculus with 12 samples.

Results

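The genes that encode the MAP kinase cascades were followed in primary mouse lung endothelial cells that lacked the mixed lineage kinases MLK2 and MLK3 or were wild type, in hypoxia and in normoxia. The set holds the protein-coding genes whose symbols start as those of the MAP4K, MAP3K, MAP2K and MAPK families, the TAO kinases, the MAPK-activated kinases and the JNK-interacting scaffolds do. The members were chosen by their measured level, which had to average 1 FPKM or more across all 12 libraries, where FPKM is the number of fragments scaled to transcript length and to library depth. Of 61 genes matched by symbol, 5 were left out by name (Map3k9 to Map3k13, which include the 2 targeted genes), 10 lay under 1 FPKM, and 46 were members, out of 23422 genes in the table. Their being expressed is therefore no result. The members just inside the limit were Mapk15 at 1.20 FPKM and Mapk8ip1 at 1.14 FPKM, and the gene just outside it was Map3k15 at 0.436 FPKM.

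MAP kinase cascades pass a signal through kinases that phosphorylate each other in turn. A MAP4K or a small GTPase activates a MAP3K, which activates a MAP2K, which activates a MAP kinase of the ERK, JNK, p38 or ERK5 group, and scaffold proteins hold the tiers together. In endothelial cells these pathways carry growth factor, cytokine and stress signals, and MLK2 and MLK3 are MAP3Ks best known for acting above JNK.

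The 4 groups had 3 RNA sequencing libraries each: MLK2-/-MLK3-/- double knockout cells kept for 90 minutes at 1% oxygen (hypoxia), double knockout cells kept at 21% oxygen (normoxia), wild type cells kept for 90 minutes at 1% oxygen, and wild type cells kept at 21% oxygen. All were cultured monolayers of primary cells from the lung, grown with serum and endothelial mitogen. The labels give no age, do not say which exons the alleles lack, and leave it unsaid whether replicate libraries stem from separate animals or cultures, so p-values measure the spread between these libraries, which may be technical. The comparisons asked what oxygen changed in each genotype, what the loss of the kinases changed at each oxygen level, and whether the genotypes differed in their response to oxygen.

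The depth estimated from the steps between low values was 21000000 to 25900000 fragments per library, and 11378 genes reached a mean of 1 FPKM and were tested. Map3k10, which encodes MLK2, was at 1.02 to 1.34 FPKM in double knockout hypoxia and 0.131 to 0.169 FPKM in double knockout normoxia, against 16.6 to 19.2 FPKM in wild type. Map3k11, which encodes MLK3, was at 10.9 to 12.2 FPKM in the double knockout and 31.9 to 36.4 FPKM in wild type. The summed level of 11 endothelial markers was 2957 to 3161 FPKM in all libraries, with Vwf alone under 1 FPKM. The summed macrophage markers were at 64.9 to 72.0 FPKM in double knockout hypoxia and 65.2 to 77.8 FPKM in double knockout normoxia, and at 30.6 to 31.3 FPKM in wild type hypoxia and 22.5 to 30.7 FPKM in wild type normoxia, with 4 of 8 (Adgre1, C1qa, Csf1r and Ptprc) under 1 FPKM and most of the sum from Lyz2. Summed lymphatic endothelial markers were at 404.8 to 444.7 FPKM in double knockout hypoxia and 372.1 to 430.9 FPKM in double knockout normoxia, and at 519.3 to 592.8 FPKM in wild type hypoxia and 482.2 to 493.9 FPKM in wild type normoxia. Summed fibroblast markers were at 4.38 to 5.01 FPKM in double knockout hypoxia and 6.03 to 6.41 FPKM in double knockout normoxia, and at 2.00 to 2.97 FPKM in wild type hypoxia and 2.47 to 3.26 FPKM in wild type normoxia, with Col1a1 and Pdgfra among 5 of 7 under 1 FPKM. Summed mural markers were at 27.4 to 32.9 FPKM in double knockout hypoxia and 25.7 to 27.0 FPKM in double knockout normoxia, and at 35.1 to 45.7 FPKM in wild type hypoxia and 27.9 to 36.4 FPKM in wild type normoxia, with 5 of 7 under 1 FPKM. The part of these differences in the genotype and hypoxia comparisons was not tested, and in bulk RNA fewer cells of a type and less RNA per cell cannot be told apart.

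The 250 bases upstream of Map2k1, Map3k4, Mapk8 and Mapk6 are shown because, of the members that changed with hypoxia in both genotypes and had a promoter entry in RefSeq, these 4 had the largest response in wild type. Capitals mark the 5-letter cores of the hypoxia response element, ACGTG or GCGTG on either strand, so that a core on the opposite strand reads CACGT or CACGC. The sequences are from RefSeq on GRCm38.p6, and all lie on the minus strand and end 1 base before the RefSeq start.
Map2k1 chr9:64253606-64253855: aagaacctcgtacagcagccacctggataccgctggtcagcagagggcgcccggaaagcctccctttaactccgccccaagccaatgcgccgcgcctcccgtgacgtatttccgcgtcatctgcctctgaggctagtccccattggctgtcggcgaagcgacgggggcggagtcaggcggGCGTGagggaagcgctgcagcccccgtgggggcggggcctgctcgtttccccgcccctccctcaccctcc
Map3k4 chr17:12318661-12318910: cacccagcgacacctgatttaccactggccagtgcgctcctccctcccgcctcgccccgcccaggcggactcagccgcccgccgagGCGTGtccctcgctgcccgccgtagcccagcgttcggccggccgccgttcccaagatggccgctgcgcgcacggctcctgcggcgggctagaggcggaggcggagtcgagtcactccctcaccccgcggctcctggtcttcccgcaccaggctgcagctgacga
Mapk8 chr14:33447159-33447408: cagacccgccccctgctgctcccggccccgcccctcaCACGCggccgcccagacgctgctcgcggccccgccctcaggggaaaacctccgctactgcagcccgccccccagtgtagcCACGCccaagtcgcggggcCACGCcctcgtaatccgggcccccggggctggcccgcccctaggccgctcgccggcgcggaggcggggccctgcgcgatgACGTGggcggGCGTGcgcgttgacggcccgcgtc
Mapk6 chr9:75410017-75410266: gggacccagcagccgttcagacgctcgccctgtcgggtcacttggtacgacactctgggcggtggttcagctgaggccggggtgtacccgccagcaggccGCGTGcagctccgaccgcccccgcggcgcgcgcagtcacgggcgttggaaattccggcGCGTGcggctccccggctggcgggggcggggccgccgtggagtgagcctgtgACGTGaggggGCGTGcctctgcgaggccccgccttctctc

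Map2k1 and Map3k4 had 1 core each in this window, Mapk6 had 4 and Mapk8 had 5. Of the 46 members, 37 had a promoter entry, and 26 of these (70.3%) had at least 1 core, while 38.6% of all 32851 mouse promoter windows of that length did. The members' windows were also richer in G and C, with a median of 66.0% against 52.4% for all windows. By motif, ACGTG was in 24.3% of the members' windows and 16.6% of all windows, and GCGTG was in 62.2% and 28.2%. The cAMP response sequence TGACG, on either strand, was in 37.8% of the members' windows and 17.8% of all. The AP-1 sequence TGANTCA was in 5.41% of the members' windows and 6.75% of all. TGACG shares 3 letters with the core ACGTG and can overlap it as TGACGTG. A match gives only the letters of a window.

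The members spanned a wide range of levels, which FPKM gives per transcript length and therefore allows to be set side by side. Map4k4, a STE20-family kinase known for acting above JNK, stood highest with a mean of 320.7 FPKM, above 97.2% of the tested genes. The median member mean was 16.2 FPKM, against 12.6 FPKM for all tested genes. Of the 46 members, 8 had a mean of 50 FPKM or more, 28 of 10 or more and 7 under 5. In 44 of the 46 every library reached 1 FPKM, the exceptions being Mapk15 and Mapk8ip1, whose double knockout hypoxia means were 0.891 and 0.948 FPKM.

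**Figure D1:**
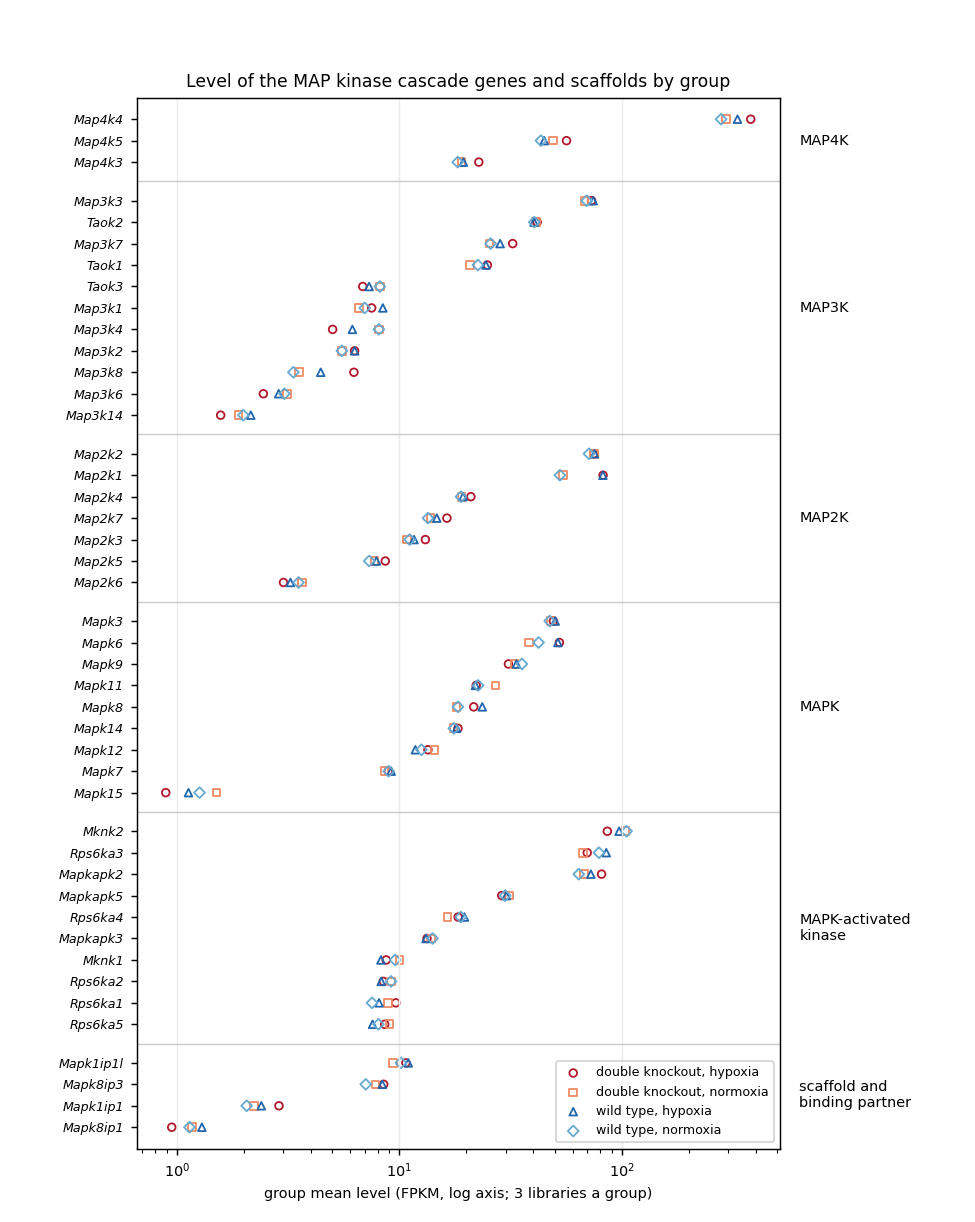
Mean level of each of 44 members in each group, in FPKM on a log axis, ordered within each tier of the cascade by overall mean. Circles are double knockout hypoxia, squares double knockout normoxia, triangles wild type hypoxia and diamonds wild type normoxia (3 libraries each); Map4k4 lies far to the right of every other member, and the 4 symbols of a member lie close together compared with the spread between members.

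Levels also differed within each tier. Among the MAP4Ks, Map4k4 was followed by Map4k5 at a mean of 48.4 FPKM. Among the MAP3Ks, Map3k3 (MEKK3, known in the mouse for its part in vessel development) led with 71.2 FPKM, followed by the TAO kinase gene Taok2 with 40.8 FPKM. Map2k2 and Map2k1, which encode the ERK-activating kinases MEK2 and MEK1, had 74.0 and 67.9 FPKM. Among the MAP kinases, Mapk3 (ERK1) had 48.7 FPKM and the atypical kinase gene Mapk6 46.1 FPKM. Mknk2, whose product phosphorylates the translation factor eIF4E, and Rps6ka3, which encodes the ERK-activated kinase RSK2, led the MAPK-activated kinases with 98.0 and 75.2 FPKM. Of the JNK scaffolds, Mapk8ip3 (JIP3) had 7.94 FPKM and Mapk8ip1 (JIP1) 1.14 FPKM. The third JNK scaffold, Mapk8ip2, and the third JNK gene, Mapk10, were under 1 FPKM.

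Hypoxia was first compared with normoxia within each genotype. Kinase genes of every tier passed the test in both genotypes, and neither JNK scaffold passed it in either. Under some alternatives Mapk8ip3 passed in wild type and Mapk8ip1 in the double knockout. The test was limma on log2(FPKM + 1) over all 11378 genes, with an adjusted p under 0.05 as the threshold, and fold changes on that scale understate the change of low genes. In the double knockout, 15 members rose and 7 fell, which was 47.8% of the 46, against 39.3% of all tested genes. In wild type, 7 members rose and 1 fell, which was 17.4% of the 46, against 20.8% of all tested genes. Without wild type hypoxia library 1, 5 members passed in wild type. Of all tested genes, 19.6% rose and 19.6% fell in the double knockout, and 10.5% rose and 10.4% fell in wild type. Endothelial, fibroblast and mural marker sums in the double knockout, and the lymphatic sum in wild type, did not overlap between oxygen levels. The endothelial sum was at 3101 to 3161 FPKM in double knockout hypoxia and 2957 to 3079 FPKM in double knockout normoxia. The part of these marker differences in the hypoxia results was not tested. The median log2 fold change of the members was 0.06 in the double knockout and 0.08 in wild type, against 0.01 and 0.00 for all tested genes.

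In the double knockout, the 3 hypoxia libraries lay above all 3 normoxia libraries for 16 members (25.6% of all genes) and below them for 8 (24.6% of all genes). In wild type the hypoxia libraries lay above for 17 members (18.8% of all genes) and below for 5 (19.4% of all genes). All 7 members that rose in wild type were among the 15 that rose in the double knockout, and the 1 that fell, Map3k4, was among the 7 that fell there. Of all tested genes, 965 rose in both genotypes, which was 81.0% of the 1192 that rose in wild type and 43.2% of the 2233 that rose in the double knockout.

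**Figure D2:**
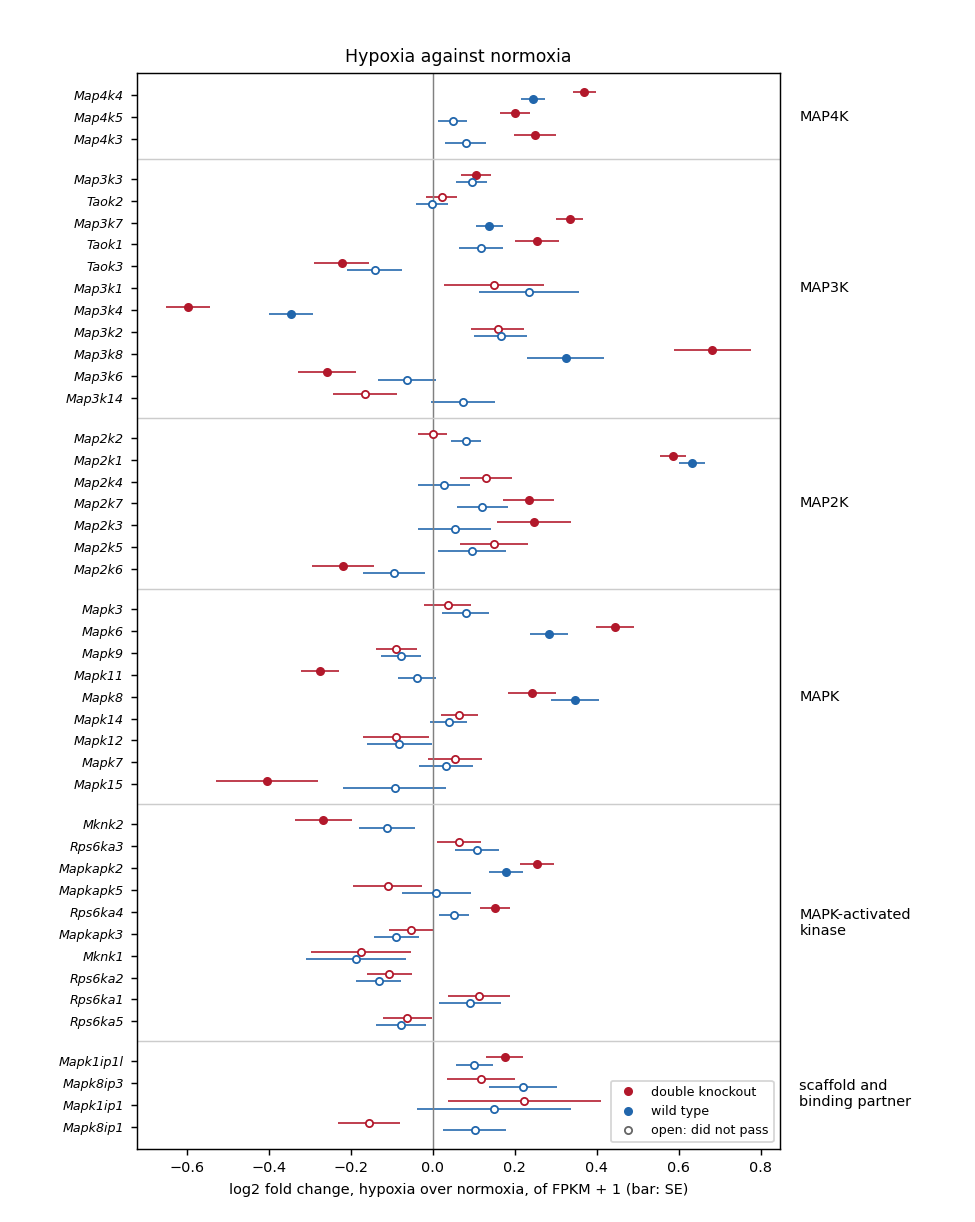
Log2 fold change of each of 44 members, hypoxia over normoxia, on the log2(FPKM + 1) scale, with its standard error, in the double knockout (upper point of each pair) and in wild type (lower point). Filled points passed an adjusted p of 0.05 in limma; both points are filled in 8 members, of which Map3k4 alone lies left of 0.

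In the MAP4K tier, 3 of 4 tested members rose in the double knockout (75.0%) and 1 of 4 in wild type (25.0%), where 19.6% and 10.5% of all tested genes rose. Map4k4 (chromosome 1, 39900913 to 40026310, GRCm38) had 378, 385 and 374 FPKM in double knockout hypoxia, against 286, 296 and 298 FPKM in double knockout normoxia. In the wild type libraries it had 333, 329 and 331 FPKM in hypoxia, against 285, 277 and 275 FPKM in normoxia. The hypoxia libraries lay above the normoxia libraries in both genotypes, and the double knockout hypoxia libraries lay above all others. By limma the log2 fold change was 0.37 ± 0.03 (SE, adjusted p = 3.12e-06) in the double knockout and 0.24 ± 0.03 (adjusted p = 0.000174) in wild type. The file lists 11 transcripts of Map4k4, and its 3 leading transcripts each stood higher in all 3 hypoxia libraries than in all normoxia libraries of the same genotype.

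Map4k5 (chromosome 12, 69803750 to 69893200), which encodes another STE20-family kinase, had 56.9, 55.4 and 56.9 FPKM in double knockout hypoxia, against 47.3, 50.8 and 48.9 FPKM in double knockout normoxia. The wild type values were 43.0, 45.4 and 45.9 FPKM in hypoxia, against 43.0, 43.2 and 43.6 FPKM in normoxia. The groups were apart in the double knockout and overlapped in wild type. Map4k5 rose in double knockout cells (log2 fold change by limma 0.20 ± 0.04, adjusted p = 0.00109) and had 0.05 ± 0.04 in wild type (adjusted p = 0.384). Map4k3 (GLK, a kinase known for amino acid signalling to mTORC1) had 22.6, 23.5 and 22.0 FPKM in double knockout hypoxia and 17.8, 20.5 and 18.8 FPKM in double knockout normoxia. Its wild type libraries had 19.1, 18.9 and 20.1 FPKM in hypoxia and 18.2, 18.4 and 18.2 FPKM in normoxia. In both genotypes all hypoxia libraries of Map4k3 lay above the normoxia libraries, but only the double knockout difference passed in limma (0.25 ± 0.05, adjusted p = 0.00228, against 0.08 ± 0.05, adjusted p = 0.296 in wild type).

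In the MAP3K tier, 4 of 11 members rose and 3 fell in the double knockout (63.6% called), and 2 rose and 1 fell in wild type (27.3%), against 39.3% and 20.8% of all tested genes. Map3k4 (chromosome 17, 12227621 to 12318796) encodes MEKK4, which is activated by GADD45 proteins and acts above p38 and JNK. It had 5.17, 4.93 and 4.93 FPKM in double knockout hypoxia, against 7.82, 8.34 and 8.14 FPKM in double knockout normoxia. Wild type libraries stood at 5.82, 6.13 and 6.49 FPKM in hypoxia, against 7.77, 8.47 and 8.03 FPKM in normoxia. All hypoxia libraries lay below all normoxia libraries, and those of the double knockout lay lowest. Map3k4 fell by 0.60 on the log2 scale in the double knockout (limma, SE 0.05, adjusted p = 9.73e-06) and by 0.35 in wild type (SE 0.05, adjusted p = 0.00125).

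Map3k8 encodes TPL2, the MAP3K that activates MEK1 after cytokine and Toll-like receptor signals. It had 6.29, 6.68 and 5.76 FPKM in double knockout hypoxia, against 3.54, 3.05 and 4.00 FPKM in double knockout normoxia. Wild type cells had 4.68, 4.66 and 3.95 FPKM in hypoxia, against 3.17, 3.74 and 3.10 FPKM in normoxia. The groups did not overlap within either genotype, and the means stood 1.77-fold apart in the double knockout and 1.33-fold apart in wild type. The limma log2 fold change of 0.68 ± 0.09 in the double knockout (adjusted p = 0.000169) was the largest rise among the members. In wild type the change was 0.32 ± 0.09 (adjusted p = 0.0307). The wild type call was lost with no filter on low values (adjusted p = 0.0719), and without wild type normoxia library 1 or 3 or wild type hypoxia library 1 or 2 (adjusted p 0.0904 to 0.106). At this level a library held an estimated 167 to 331 fragments of Map3k8.

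Map3k7 (chromosome 4, 31964097 to 32023467) encodes TAK1, which TGF-beta and cytokine receptors activate. It had 31.9, 32.1 and 32.8 FPKM in double knockout hypoxia, against 25.4, 25.9 and 25.0 FPKM in double knockout normoxia. Its wild type libraries had 29.0, 27.8 and 28.3 FPKM in hypoxia, against 25.3, 25.8 and 26.0 FPKM in normoxia. The normoxia libraries of both genotypes overlapped, and the double knockout hypoxia libraries lay above all others. The change on the log2 scale by limma was 0.33 ± 0.03 (adjusted p = 1.87e-05) in the double knockout and 0.14 ± 0.03 (adjusted p = 0.0133) in wild type, where the call was lost without wild type hypoxia library 1 (adjusted p = 0.0598), in a fit of the wild type groups alone (0.0537) and with the highest transcript in place of the sum (0.0939).

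Map3k3 had 73.2, 75.0 and 71.0 FPKM in double knockout hypoxia and 66.6, 69.7 and 67.4 FPKM in double knockout normoxia. Its wild type libraries had 78.2, 73.1 and 71.7 FPKM in hypoxia and 69.6, 69.5 and 69.4 FPKM in normoxia. The hypoxia libraries lay above the normoxia libraries in both genotypes, but the change was small, and only that in the double knockout passed in limma (log2 fold change 0.10 ± 0.04, adjusted p = 0.0430, against 0.09 ± 0.04, adjusted p = 0.0958 in wild type). That call was lost in 13 of 22 alternatives, with adjusted p up to 0.418, among them leaving out any wild type normoxia library, wild type hypoxia library 2, double knockout normoxia library 1 or 3, or double knockout hypoxia library 1 or 2 (adjusted p 0.0525 to 0.141). Taok2 had 40.2, 42.3 and 42.3 FPKM in double knockout hypoxia and 42.2, 41.8 and 39.0 FPKM in double knockout normoxia, and 40.7, 40.8 and 39.3 FPKM in wild type hypoxia and 39.8, 40.3 and 40.9 FPKM in wild type normoxia. These groups overlapped in both genotypes and passed in neither.

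The other TAO kinase genes, which encode kinases known for acting above p38, moved in opposite directions in the double knockout. Taok1 had a limma log2 fold change of 0.25 (adjusted p = 0.00295) and Taok3 of -0.22 (adjusted p = 0.0200). In wild type Taok1 had 0.12 (adjusted p = 0.146) and Taok3 -0.14 (adjusted p = 0.157), neither past the threshold. The Taok3 call was lost without double knockout normoxia library 1 or 3 or double knockout hypoxia library 3 (adjusted p up to 0.0824). It was also lost with quantile normalization (0.0658), in a fit of the double knockout groups alone (0.0676) and with array weights (0.0750). The Taok1 call was lost with the highest transcript in place of the sum (adjusted p = 0.0687). Taok1 passed in wild type without wild type normoxia library 2 (adjusted p = 0.0379). Map3k6 (ASK2, a partner of the stress-activated kinase ASK1) fell in the double knockout, where its hypoxia libraries had 2.44, 2.58 and 2.32 FPKM and its normoxia libraries 3.17, 2.82 and 3.40 FPKM (limma log2 fold change -0.26, adjusted p = 0.0120). Without double knockout normoxia library 3 its adjusted p was 0.0511, and with quantile normalization it was 0.0508. Map3k1 (MEKK1), Map3k2 (MEKK2) and Map3k14 (NIK, the kinase of noncanonical NF-kappaB signalling) passed in neither genotype, although the hypoxia libraries of Map3k2 lay above its normoxia libraries in both. Without wild type normoxia library 3, Map3k2 passed in the double knockout (adjusted p = 0.0410). It also passed there with quantile normalization (0.0176) and with array weights (0.0410). In wild type Map3k2 passed with quantile normalization (adjusted p = 0.0440) and with array weights (0.0468).

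In the MAP2K tier, 3 of 7 members rose and 1 fell in the double knockout (57.1% called), and 1 rose in wild type (14.3%), against 39.3% and 20.8% of all tested genes. Map2k1 (chromosome 9, 64185770 to 64253631) had the smallest adjusted p of all members in both genotypes. It had 82.4, 81.9 and 82.6 FPKM in double knockout hypoxia, against 53.2, 53.7 and 56.7 FPKM in double knockout normoxia. The wild type values were 83.5, 81.7 and 81.3 FPKM in hypoxia, against 53.3, 51.7 and 52.9 FPKM in normoxia. Both hypoxia groups stood near 82 FPKM and both normoxia groups between 51.7 and 56.7 FPKM, with a wide gap between them. Limma gave a log2 fold change of 0.59 ± 0.03 (adjusted p = 2.19e-07) in the double knockout and 0.63 ± 0.03 (adjusted p = 1.12e-07) in wild type, and every alternative kept both calls.

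Its paralogue Map2k2 had 72.9, 77.2 and 74.4 FPKM in double knockout hypoxia and 73.7, 77.4 and 73.5 FPKM in double knockout normoxia. Wild type libraries stood at 77.9, 73.1 and 74.9 FPKM in hypoxia and 71.6, 69.9 and 72.0 FPKM in normoxia. The double knockout groups overlapped and the wild type hypoxia libraries lay just above the normoxia ones, and neither passed (limma log2 fold changes -0.00 and 0.08, adjusted p = 0.985 and 0.137). Map2k1 made up 52.4 ± 0.80% of the FPKM summed over Map2k1 and Map2k2 in double knockout hypoxia, against 42.1 ± 1.30% in double knockout normoxia, and 52.2 ± 0.555% in wild type hypoxia, against 42.5 ± 0.167% in wild type normoxia (SD, n = 3).

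The MAP2Ks of the JNK and p38 pathways moved less. Map2k7, the JNK-specific kinase MKK7, had 16.3, 16.5 and 16.3 FPKM in double knockout hypoxia and 12.9, 14.9 and 13.6 FPKM in double knockout normoxia (log2 fold change by limma 0.23 ± 0.06, adjusted p = 0.0113). In wild type its groups overlapped, at 13.8 to 16.1 FPKM in hypoxia and 13.0 to 14.1 FPKM in normoxia. The annotated exons of another gene model, Gm49320, cover 35.2% of those of Map2k7, and reads from the 2 could be divided between them by the counting. Map2k4 (MKK4, which activates JNK and p38) passed in neither genotype, though without double knockout hypoxia library 1 it passed in the double knockout (log2 fold change 0.20, adjusted p = 0.0270). The p38 activators moved in opposite directions in the double knockout. Map2k3 (MKK3) rose by 0.25 (adjusted p = 0.0480) and Map2k6 (MKK6) fell by 0.22 (adjusted p = 0.0367) on the log2 scale in limma. Map2k3 lost its call in 13 of 22 alternatives and Map2k6 in 8 of 21, with adjusted p up to 0.158 and 0.144; leaving out any double knockout normoxia library ended both, as did leaving out double knockout hypoxia library 2. Map2k3 was also lost without any wild type normoxia library, wild type hypoxia library 2 or double knockout hypoxia library 1, and Map2k6 without double knockout hypoxia library 3. Map2k5 (MEK5) passed in neither genotype, though it passed in the double knockout without double knockout normoxia library 1 (adjusted p = 0.0359).

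Of 10 MAP kinase genes, 2 rose and 2 fell in the double knockout (40.0% called), and 2 rose in wild type (20.0%), shares near the 39.3% and 20.8% of all tested genes. Mapk6 (chromosome 9, 75369062 to 75410005) encodes ERK3, an atypical MAP kinase that no MAP2K is known to activate. It had 55.4, 48.6 and 53.1 FPKM in double knockout hypoxia, against 38.4, 38.1 and 38.1 FPKM in double knockout normoxia. Wild type cells had 52.3, 52.0 and 50.4 FPKM in hypoxia, against 41.7, 44.1 and 40.9 FPKM in normoxia. The hypoxia groups of the genotypes overlapped, and in normoxia the double knockout libraries lay below those of wild type (-0.14 on the log2 scale by limma, adjusted p = 0.0925, or 0.0452 without double knockout hypoxia library 2). By limma the log2 fold change was 0.44 ± 0.05 (adjusted p = 2.56e-05) in the double knockout and 0.28 ± 0.05 (adjusted p = 0.00168) in wild type.

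Mapk8 (chromosome 14, 33377898 to 33447158) encodes JNK1. It had 22.2, 22.3 and 20.2 FPKM in double knockout hypoxia, against 18.7, 18.2 and 17.4 FPKM in double knockout normoxia. Its wild type libraries had 22.3, 24.5 and 23.9 FPKM in hypoxia, against 19.4, 17.0 and 18.6 FPKM in normoxia. The hypoxia libraries lay above the normoxia libraries in both genotypes. The change on the log2 scale by limma was 0.24 ± 0.06 (adjusted p = 0.00622) in the double knockout and 0.35 ± 0.06 (adjusted p = 0.00192) in wild type. Mapk9, which encodes JNK2, was at 29.7 to 33.0 FPKM in double knockout hypoxia and 31.4 to 33.9 FPKM in double knockout normoxia, and at 32.8 to 34.6 FPKM in wild type hypoxia and 34.2 to 37.2 FPKM in wild type normoxia. Its groups overlapped in both genotypes, and it passed in neither (limma log2 fold changes -0.09 and -0.08, adjusted p = 0.175 and 0.296). With quantile normalization Mapk9 passed as lower in the double knockout (-0.15, adjusted p = 0.0302). Mapk8 made up 41.1 ± 2.70% of the FPKM of the JNK pair in double knockout hypoxia, against 35.5 ± 1.76% in double knockout normoxia, and 41.2 ± 1.05% in wild type hypoxia, against 34.0 ± 1.31% in wild type normoxia (SD, n = 3).

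**Figure D3:**
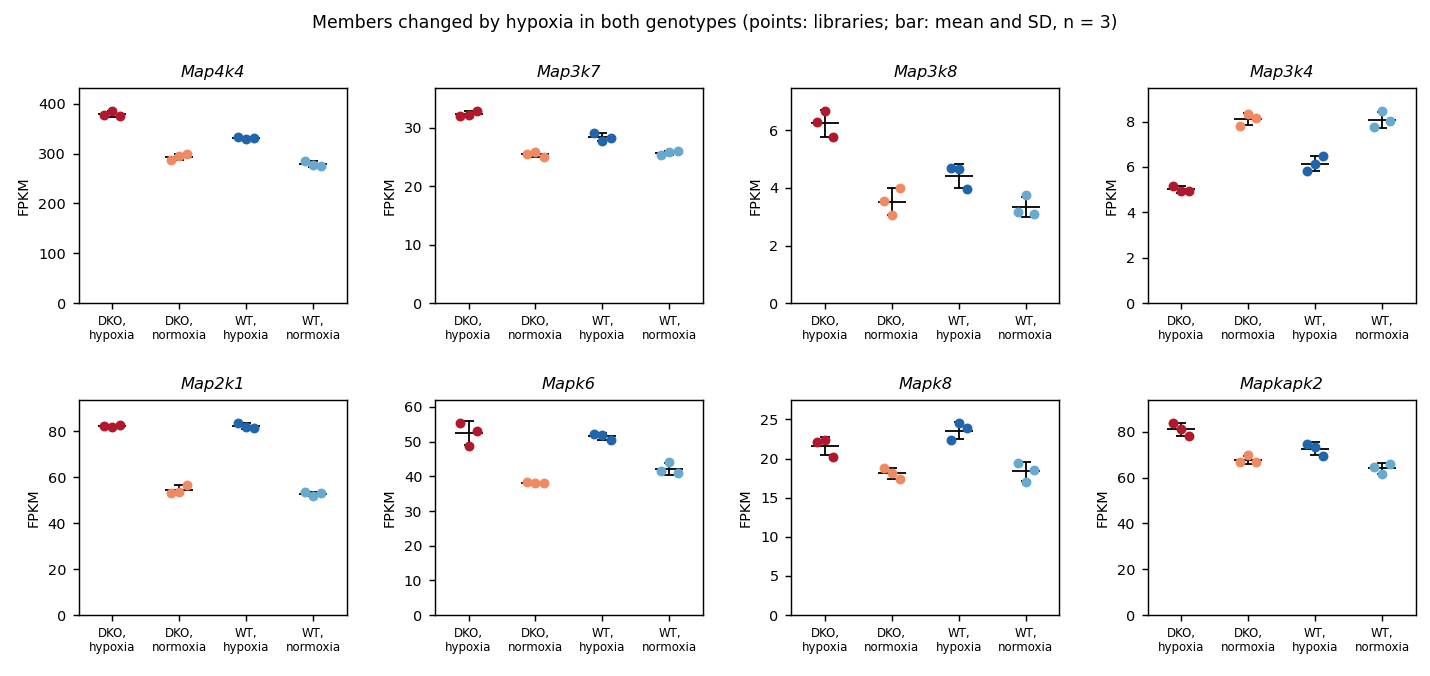
FPKM of the 8 members that passed for hypoxia in both genotypes, by library (points), with mean and SD (bars, n = 3); DKO is the double knockout and WT wild type. Map2k1 stands near 82 FPKM in both hypoxia groups, Map3k4 is lower in hypoxia in both genotypes, and Map4k4, Map3k7 and Map3k8 are highest in double knockout hypoxia.

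The transcripts of Mapk8 divided differently. The leading transcript, ENSMUST00000111943, had 11.9, 11.6 and 9.83 FPKM in double knockout hypoxia and 11.4, 10.2 and 9.79 FPKM in double knockout normoxia, and 12.3, 14.3 and 14.4 FPKM in wild type hypoxia and 9.25, 8.73 and 9.77 FPKM in wild type normoxia. It overlapped between oxygen levels in the double knockout and was apart in wild type. The next transcript, ENSMUST00000022504, had 8.12, 8.46 and 7.89 FPKM in double knockout hypoxia and 5.72, 6.02 and 5.68 FPKM in double knockout normoxia, and 8.03, 7.89 and 6.99 FPKM in wild type hypoxia and 6.90, 6.66 and 6.70 FPKM in wild type normoxia. It was apart in both genotypes, with the wider gap in the double knockout. With genes represented by their highest transcript in place of their sum, the double knockout change of Mapk8 was 0.08 and did not pass in limma (adjusted p = 0.488). Transcript levels of 1 gene rest on shared reads divided by the authors' software, so a shift between transcripts is less certain than the sum.

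**Figure D4:**
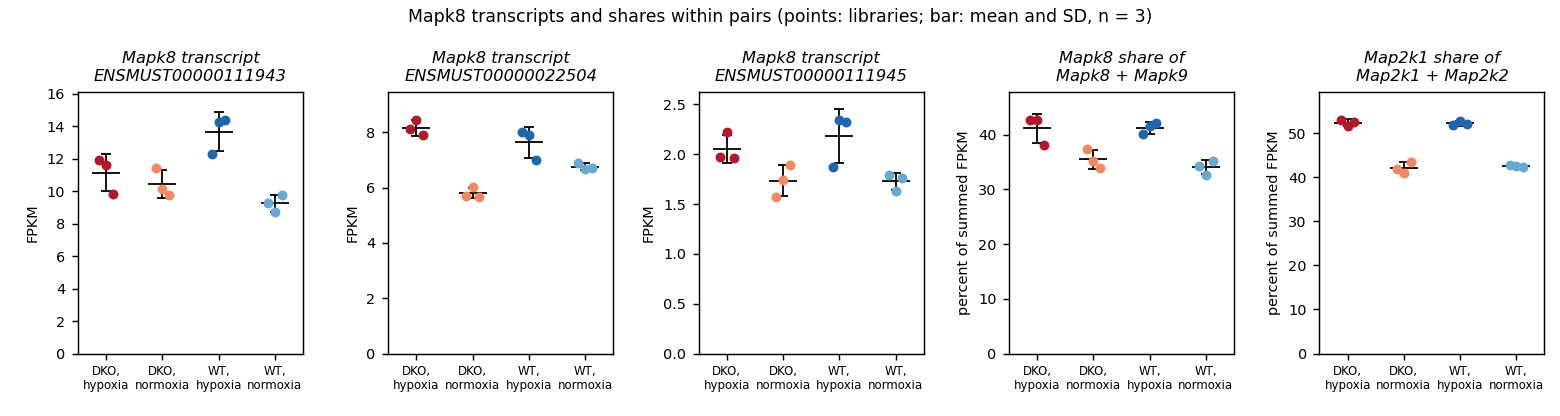
FPKM of the 3 leading Mapk8 transcripts, and the percentage of Mapk8 in Mapk8 + Mapk9 and of Map2k1 in Map2k1 + Map2k2, by library (points), with mean and SD (bars, n = 3). The first Mapk8 transcript separates the oxygen levels in wild type only, the second separates them in both genotypes, and both shares are higher in hypoxia.

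Mapk3 had 47.3, 53.4 and 47.0 FPKM in double knockout hypoxia and 49.9, 48.2 and 45.7 FPKM in double knockout normoxia, and 52.8, 50.3 and 47.3 FPKM in wild type hypoxia and 45.6, 48.3 and 48.3 FPKM in wild type normoxia. Its groups overlapped between oxygen levels in both genotypes, and it passed in neither (limma log2 fold changes 0.04 and 0.08, adjusted p = 0.654 and 0.354).

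Of the p38 genes, Mapk11 (p38 beta; chromosome 15, 89142486 to 89149628) had 22.0, 22.6 and 21.8 FPKM in double knockout hypoxia, against 26.4, 27.4 and 27.3 FPKM in double knockout normoxia. The wild type values were 20.7, 22.9 and 22.4 FPKM in hypoxia and 23.1, 21.4 and 23.3 FPKM in normoxia. The double knockout normoxia libraries stood above all 9 others. Mapk11 fell by 0.28 on the log2 scale in the double knockout (limma, SE 0.05, adjusted p = 0.000627) and had -0.04 ± 0.05 in wild type (adjusted p = 0.593). Mapk14 (p38 alpha), at 16.9 to 19.3 FPKM, and Mapk12 (p38 gamma), at 10.6 to 14.9 FPKM, passed in neither genotype. Mapk15 (ERK7), at 0.763 to 1.84 FPKM, passed as lower in double knockout cells (log2 fold change by limma -0.40, adjusted p = 0.0227). Its libraries held an estimated 27 to 73 fragments, and its call was lost without library 2 or 3 of either double knockout group (adjusted p 0.0569 to 0.0926). Quantile normalization also ended that call (adjusted p = 0.0537). Mapk7 (ERK5), at 8.06 to 9.64 FPKM, passed in neither.

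Of 10 MAPK-activated kinase genes, 2 rose and 1 fell in the double knockout (30.0% called), and 1 rose in wild type (10.0%), against 39.3% and 20.8% of all tested genes. Mapkapk2 (chromosome 1, 131053700 to 131097826) encodes MK2, the p38 target that controls the stability of cytokine messages. It had 83.8, 81.2 and 78.1 FPKM in double knockout hypoxia, against 66.6, 69.9 and 66.7 FPKM in double knockout normoxia. Wild type libraries stood at 74.7, 73.5 and 69.4 FPKM in hypoxia, against 64.6, 61.5 and 65.9 FPKM in normoxia. The groups did not overlap in either genotype. Limma gave a log2 fold change of 0.25 ± 0.04 (adjusted p = 0.000517) in the double knockout and 0.18 ± 0.04 (adjusted p = 0.0110) in wild type, where it was lost without wild type hypoxia library 1 (adjusted p = 0.0515).

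Mknk2 had 79.9, 90.9 and 87.3 FPKM in double knockout hypoxia, against 107, 110.1 and 94.2 FPKM in double knockout normoxia. Wild type cells had 102, 98.7 and 90.4 FPKM in hypoxia and 100.5, 103 and 111 FPKM in normoxia. The groups were apart in the double knockout and overlapped in wild type, and Mknk2 fell in double knockout cells (log2 fold change by limma -0.27 ± 0.07, adjusted p = 0.00894). In wild type Mknk2 passed as lower only with the highest transcript in place of the sum (-0.26, adjusted p = 0.0454). Rps6ka4, which encodes the chromatin kinase MSK2, had 18.2, 18.1 and 18.8 FPKM in double knockout hypoxia, against 16.1, 16.4 and 16.8 FPKM in double knockout normoxia. Its wild type libraries had 19.8, 19.8 and 19.3 FPKM in hypoxia and 19.1, 18.5 and 19.0 FPKM in normoxia. Its hypoxia libraries lay above the normoxia libraries in both genotypes, and it passed in double knockout cells (log2 fold change by limma 0.15 ± 0.04, adjusted p = 0.00550) and not in wild type (0.05 ± 0.04, adjusted p = 0.339). The remaining 7, Rps6ka1, Rps6ka2, Rps6ka3, Rps6ka5, Mapkapk3, Mapkapk5 and Mknk1, passed in neither genotype. Mapkapk5 (MK5, a partner of ERK3) has 56.5% of its annotated exon bases in common with Adam1a, so its value is uncertain.

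Among the scaffolds and binding partners, 1 of 4 rose in the double knockout and none passed in wild type in limma, where 2 of the 4 had an unadjusted p under 0.05. These shares were 25.0% and 0%, against 39.3% and 20.8% of all tested genes. Mapk1ip1l, a binding partner, had 11.3, 10.4 and 10.4 FPKM in double knockout hypoxia and 9.35, 9.50 and 9.22 FPKM in double knockout normoxia (log2 fold change by limma 0.17 ± 0.05, adjusted p = 0.00998). Wild type libraries of this gene had 10.8, 11.3 and 10.8 FPKM in hypoxia and 10.3, 9.84 and 10.3 FPKM in normoxia. The groups were apart in both genotypes. Mapk8ip3, which links JNK to motor proteins, had 8.97, 8.37 and 8.17 FPKM in double knockout hypoxia and 8.78, 8.13 and 6.51 FPKM in double knockout normoxia, which overlapped. The wild type values were 8.58, 8.39 and 8.17 FPKM in hypoxia and 7.16, 7.27 and 6.75 FPKM in normoxia, which were apart but did not pass (limma log2 fold change 0.22 ± 0.08, adjusted p = 0.0820). The wild type change passed under 4 alternatives, which were a fit of the wild type groups alone (adjusted p = 0.0374), array weights (0.0387), the replicate block (0.0463) and leaving out double knockout normoxia library 3 (0.0165). Mapk8ip3 shares 10.7% of its annotated exon bases with Eme2 on the same strand (mean 10.7 FPKM). It shares 8.99% with Mrps34 on the opposite strand (mean 22.9 FPKM). Its value is therefore uncertain, and the part of these genes in its changes was not tested. Mapk8ip1 was at 0.890 to 1.06 FPKM in double knockout hypoxia, against 1.05 to 1.31 FPKM in double knockout normoxia, and at 1.23 to 1.37 FPKM in wild type hypoxia, against 1.11 to 1.18 FPKM in wild type normoxia, and passed in neither genotype. Mapk1ip1, with 1 double knockout hypoxia library at 1.59 FPKM beside 3.34 and 3.70 FPKM, passed only without that library, for hypoxia in the double knockout (log2 fold change 0.49, adjusted p = 0.00961) and for genotype in hypoxia (0.42, adjusted p = 0.0474). Mapk1ip1 shares 10.4% of its annotated exon bases with Ppp2r2d on the opposite strand (mean 27.8 FPKM), so its value is uncertain.

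The response to hypoxia was then compared between the genotypes as a difference of differences. No member passed in limma, against 0.193% of all tested genes (22 genes, of which 0.0703% of all were larger and 0.123% smaller in the double knockout), and no alternative brought a member past the threshold. At an unadjusted p under 0.05 there were 9 of 46 members (19.6%), against 16.0% of all tested genes. The 14 members that passed in the double knockout and not in wild type had adjusted p from 0.116 to 0.952 for this difference, so a different response was not shown for any of them. Map3k7 came nearest, with a response larger by 0.20 ± 0.05 on the log2 scale in the double knockout (adjusted p = 0.0913). Mapk11 followed with -0.24 ± 0.07 (adjusted p = 0.116), then Map3k4 with -0.25 ± 0.08 (adjusted p = 0.145) and Map4k4 with 0.13 ± 0.04 (adjusted p = 0.160). For Map2k1 the difference was -0.05 ± 0.04 (adjusted p = 0.657).

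The genotypes were then set against each other at each oxygen level. In hypoxia, 6 members were higher and 3 lower in the double knockout than in wild type, which was 19.6% of the 46, against 16.1% of all tested genes (7.68% higher and 8.42% lower). In normoxia, 2 were higher and 2 lower, which was 8.70%, against 8.16% of all tested genes (3.84% higher and 4.32% lower). The libraries lay wholly above those of wild type for 10 members in hypoxia (17.4% of all genes) and 7 in normoxia (11.6%), and wholly below for 6 in hypoxia (18.4%) and 5 in normoxia (14.1%). Both comparisons between genotypes, in hypoxia and in normoxia, use the same libraries as the responses above. Their values therefore stand beside those responses and add no separate evidence. Macrophage, fibroblast, mural and lymphatic endothelial marker sums differed between the genotypes, as given above, and their part in these differences was not tested.

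**Figure D5:**
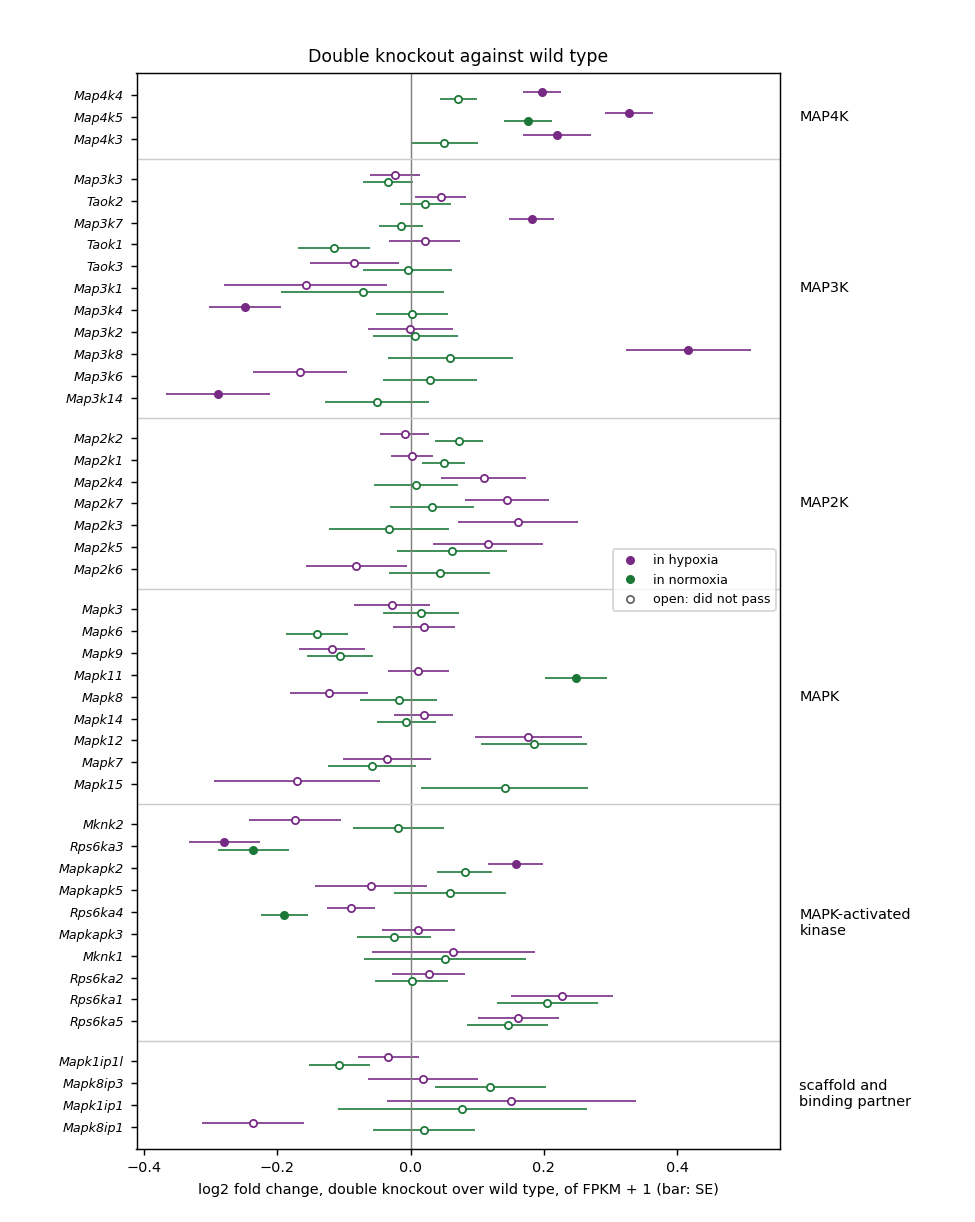
Log2 fold change of each of 44 members, double knockout over wild type, on the log2(FPKM + 1) scale, with its standard error, in hypoxia (upper point of each pair) and in normoxia (lower point). Filled points passed an adjusted p of 0.05 in limma; Map4k5 and Rps6ka3 are filled at both oxygen levels, on opposite sides of 0.

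Map4k5 and Rps6ka3 were the 2 members that passed at both oxygen levels. For Map4k5, all 6 double knockout libraries (47.3 to 56.9 FPKM) lay above all 6 wild type libraries (43.0 to 45.9 FPKM). By limma the log2 fold change was 0.33 ± 0.04 in hypoxia (adjusted p = 0.000129) and 0.18 ± 0.04 in normoxia (adjusted p = 0.0108), where it was lost without double knockout normoxia library 2 (adjusted p = 0.0515). Rps6ka3 (X chromosome, 159210307 to 159368244) had 72.4, 68.6 and 68.6 FPKM in double knockout hypoxia, against 89.7, 84.9 and 80.6 FPKM in wild type hypoxia. In normoxia it had 62.0, 72.0 and 66.7 FPKM in the double knockout, against 77.5, 79.3 and 79.6 FPKM in wild type. All 6 double knockout libraries lay below all 6 wild type libraries. Rps6ka3 was lower by a limma log2 fold change of -0.28 ± 0.05 in hypoxia (adjusted p = 0.00442) and -0.24 ± 0.05 in normoxia (adjusted p = 0.0178). The normoxia call was lost without library 2 or 3 of wild type normoxia or library 1 or 3 of double knockout normoxia, with adjusted p from 0.0520 to 0.0616, in a fit of the normoxia groups alone (0.0548) and with the highest transcript in place of the sum (0.102). Of the other ERK-activated RSK genes, Rps6ka1 (RSK1) had log2 fold changes by limma of 0.23 in hypoxia and 0.21 in normoxia (adjusted p = 0.0646 and 0.135), and Rps6ka2 (RSK3) had 0.03 and 0.00 (adjusted p = 0.788 and 0.992), none past the threshold. No test set these genes against Rps6ka3. Rps6ka1 passed in hypoxia without wild type hypoxia library 1 or double knockout normoxia library 1 or 2 (adjusted p 0.0407 to 0.0446). It also passed in hypoxia with quantile normalization (0.0399) and equal library medians (0.0442), and in normoxia with array weights (0.0341).

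In hypoxia, 3 of the 4 MAP4K genes, Map4k4, Map4k5 and Map4k3, were higher in the double knockout. Map4k4 had a limma log2 fold change of 0.20 ± 0.03 (adjusted p = 0.000726) and Map4k3 of 0.22 ± 0.05 (adjusted p = 0.0125). The Map4k3 call was lost without wild type hypoxia library 2 (adjusted p = 0.0511). Map3k8 was higher by 0.42 ± 0.09 (adjusted p = 0.0111), Map3k7 by 0.18 ± 0.03 (adjusted p = 0.00348) and Mapkapk2 by 0.16 ± 0.04 (adjusted p = 0.0232). The Map3k7 call was lost with the highest transcript in place of the sum (adjusted p = 0.0517). The Mapkapk2 call was lost without wild type hypoxia library 2 or 3 or double knockout hypoxia library 1 or 2 (adjusted p 0.0506 to 0.0939). Map3k4 was lower by a log2 fold change of -0.25 ± 0.05 (adjusted p = 0.00929). Map3k14 had 1.56, 1.66 and 1.51 FPKM in double knockout hypoxia, against 1.91, 2.23 and 2.30 FPKM in wild type hypoxia, groups that did not overlap (limma log2 fold change -0.29 ± 0.08, adjusted p = 0.0266). Its call was lost without wild type hypoxia library 2 or 3 or double knockout hypoxia library 1 or 3 (adjusted p 0.0732 to 0.0895). It was also lost in a fit of the hypoxia groups alone (0.0590).

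In normoxia the other 2 calls were Mapk11, higher by 0.25 ± 0.05 in the double knockout (limma adjusted p = 0.00592), and Rps6ka4, lower by a log2 fold change of -0.19 ± 0.04 (adjusted p = 0.00639). Every alternative kept both. In hypoxia Mapk11 had 0.01 (adjusted p = 0.898) and Rps6ka4 -0.09 (adjusted p = 0.117). Rps6ka4 lies on chromosome 19, 1.13 Mb from Map3k11, which is 1 of the 2 targeted genes. Rps6ka4 also shares 18.2% of its annotated exon bases with another gene model.

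By pathway, the members of the JNK group (the MAP2Ks MKK4 and MKK7, JNK1, JNK2 and the scaffolds JIP1 and JIP3) had 2 of 6 higher in hypoxia in the double knockout (33.3%) and 1 of 6 in wild type (16.7%), with no member lower, against 39.3% and 20.8% of all tested genes called in either direction. The ERK group (the MEKs, ERKs, RSKs and MNKs) had 1 higher and 1 lower of 9 in the double knockout (22.2%) and 1 higher in wild type (11.1%), below those shares. The p38 group had 2 higher and 2 lower of 7 in the double knockout (57.1%, above that share) and 1 higher in wild type (14.3%, below it). The double knockout share rests in part on Map2k3 and Map2k6, whose calls were lost in 13 of 22 and 8 of 21 alternatives. The ERK5 pair, Map2k5 and Mapk7, had no call in either genotype in limma, and neither gene had an unadjusted p under 0.05.

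The pathway's other genes were counted in 4 lists, to be read beside the 39.3% of all tested genes called for hypoxia in the double knockout and the 20.8% in wild type. Of 16 RAS, RAF and adaptor genes, 3 rose with hypoxia in the double knockout (18.8%) and 2 in wild type (12.5%). Of 15 further scaffolds and binding partners tested, 8 rose and 1 fell in the double knockout (60.0%) and 3 rose in wild type (20.0%), among them Spag9, which encodes the JNK scaffold JIP4 (limma log2 fold change 0.21, adjusted p = 0.00117 in the double knockout, and 0.14, adjusted p = 0.0257 in wild type). Of 17 GTPases, GADD45 genes and STE20 kinases, 6 rose and 3 fell in the double knockout (52.9%) and 4 rose and 1 fell in wild type (29.4%). Gadd45a and Gadd45b encode activators of MEKK4, the product of Map3k4, and in the double knockout they went opposite ways. Gadd45a was at 156.7 ± 14.8 FPKM in double knockout hypoxia, against 245.1 ± 2.98 FPKM in double knockout normoxia (SD, n = 3; log2 fold change by limma -0.65, adjusted p = 2.43e-05), while its wild type change of -0.16 missed the threshold (adjusted p = 0.108). Gadd45b was at 54.0 ± 1.75 FPKM in double knockout hypoxia, against 38.8 ± 1.09 FPKM in double knockout normoxia (log2 fold change by limma 0.47, adjusted p = 7.03e-05), and also rose in wild type (0.29, adjusted p = 0.00454). No gene of this list passed in limma for the difference between the hypoxia responses of the genotypes. A different response was therefore not shown for Gadd45a or Gadd45b. Of 16 MAP kinase substrates, 8 rose and 3 fell in the double knockout (68.8%) and 4 rose and 1 fell in wild type (31.2%). Eif4e, the translation factor that the MNKs phosphorylate, was at 127 ± 8.77 FPKM in double knockout hypoxia, against 93.4 ± 5.70 FPKM in double knockout normoxia, and at 120.1 ± 3.48 FPKM in wild type hypoxia, against 97.4 ± 1.13 FPKM in wild type normoxia. It rose in both genotypes (limma log2 fold change 0.44 and 0.30, adjusted p = 6.39e-05 and 0.00252). Spag9 was chosen here after its values were seen, as the scaffold nearest to the members.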

How the data were processed

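Expression was measured by RNA sequencing of total RNA in 12 libraries, 3 in each of 4 groups taken from the sample titles. The authors deposited FPKM values per transcript. The aligner was TopHat2, as named per the submitters' processing notes. Its version is not given in the sources used here, nor are the genome build, the program behind the FPKM and any use of strand in counting. Values were summed per gene identifier, and 46 members were placed by identifier in GENCODE M21 (GRCm38).

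The 11378 genes whose mean reached 1 FPKM were tested as log2 of the deposited FPKM + 1 with limma 3.58.1 in R 4.3.3, with 1 coefficient per group over all 12 libraries, a variance trend, two-sided tests with 8 residual degrees of freedom, and Benjamini-Hochberg adjustment over all tested genes. The threshold was 0.05. An exact permutation test of 3 against 3 libraries cannot go below p = 0.1 and was not used. The procedure was tested on simulated data. Depth is an estimate, since the files give no counts: with effective lengths 275 bases shorter than the transcripts, 90.4% to 91.9% of low values of 9301 single-transcript genes were within 0.1 of whole fragments. Genes per library at 1 FPKM or more numbered 11281 to 11410.

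The members, the lists and the markers were chosen with earlier results of these data known. Members past the threshold in any comparison, by smallest adjusted p up to 10 per comparison, and the 2 highest of each tier were named with values per library. For each list of other pathway genes, up to 3 with the smallest adjusted p could be named. Alternatives were a pseudocount of 0.1, a minimum mean of 5 FPKM, no filter, quantile normalization, equal library medians, the highest transcript of each gene, only the groups compared, array weights, a constant variance model, a replicate block, and leaving out each library in turn. Of the 46 members, 2 are counted in every total but not reported by name or drawn.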

Additional observations from a re-analysis of the deposited data

How the results depend on the processing

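No member reversed direction past the threshold under any alternative. Of the members that passed for hypoxia, 14 of 22 in the double knockout and 5 of 8 in wild type passed under every alternative; for double knockout against wild type it was 5 of 9 in hypoxia and 2 of 4 in normoxia. Leaving out 1 library gave 16 to 22 members for hypoxia in the double knockout, 5 to 9 in wild type, 6 to 10 for genotype in hypoxia and 3 to 5 in normoxia. Over all tested genes, leaving out 1 library gave 1382 to 2393 calls for hypoxia in wild type (2370 with all), the lowest without wild type hypoxia library 1 and 1495 without library 2. It gave 1175 to 1873 for genotype in hypoxia (1832 with all), the lowest without wild type hypoxia library 2 and 1185 without double knockout hypoxia library 1. It gave 583 to 935 for genotype in normoxia (929 with all), the lowest without wild type normoxia library 2 and 617 without double knockout normoxia library 2; fitting only those 2 groups gave 616. For the difference between the hypoxia responses, leaving out 1 library gave 1 to 39 genes (22 with all), with a change of over 1.5 times for each library except wild type hypoxia 3 and double knockout hypoxia 2, quantile normalization 12, no variance trend 6 and array weights 153; the cause was not tested. The main fit did not pair libraries by replicate number. For 18 pairs of same-numbered libraries, deviations from the group means correlated at -0.084 to 0.167, with 1 pair over 0.1. These correlations cannot decide whether same-numbered libraries were prepared together. With the replicate block 21 members passed for hypoxia in the double knockout, 9 in wild type, 9 for genotype in hypoxia, 4 in normoxia and 0 for the difference, where 1 of all tested genes passed. Depth limits members at low levels, such as Mapk15, Mapk8ip1 and Map2k6, with as few as 27, 50 and 98 estimated fragments in a library. The exons of 16 members overlap those of another gene.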

Other observations

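The family members under 1 FPKM were not tested, and those named here were chosen after their values were seen. Rps6ka6, which encodes the RSK family member RSK4, had 0.605, 0.286 and 0.356 FPKM in double knockout hypoxia and 0.535, 0.687 and 0.346 FPKM in double knockout normoxia, against 0.294, 0.113 and 0.315 FPKM in wild type hypoxia and 0.260, 0.117 and 0.167 FPKM in wild type normoxia; the hypoxia groups overlapped and the normoxia groups did not. Map3k15, which encodes the ASK family member ASK3, had 0.601, 0.619 and 0.534 FPKM in double knockout hypoxia and 0.474, 0.515 and 0.469 FPKM in double knockout normoxia, against 0.448, 0.483 and 0.358 FPKM in wild type hypoxia and 0.336, 0.190 and 0.208 FPKM in wild type normoxia, with no overlap between genotypes at either oxygen level. Map3k5 (ASK1) had 1.21 FPKM in wild type normoxia library 3 and 0.159 to 0.355 FPKM in the 11 others. Mapk10, the JNK gene known mainly from neurons, and the scaffold gene Mapk8ip2 were under 0.05 FPKM in every library. Mapk13 (p38 delta) and Map3k19 were low throughout, with at most 0.181 and 0.107 FPKM in any library; the double knockout libraries lay above those of wild type for Mapk13 in normoxia and for Map3k19 in hypoxia, and overlapped with them at the other oxygen level.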
